A study of Mus musculus with 6 samples.

Results

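The 8 genes described here encode enzymes that break down lysine (Aass, Aldh7a1, Gcdh), that break down proline and hydroxyproline (Prodh, Prodh2, Aldh4a1) or that make proline (Pycr1, Aldh18a1). They were taken by symbol from a table of 55450 genes. They were chosen for their place in these pathways, with earlier results of these data known. All 8 passed the filter on low counts that left 14539 genes for testing. RNA was read from the left liver lobe of 6 mice of the strain labelled C57BL/J, with 1 library per mouse. In the 3 knockout (KO) mice both copies of LKB1, encoded by the gene Stk11, were flanked by loxP sites (fl/fl), and the 3 wild-type (WT) mice had the genotype labelled normal. Both groups received AAV8 Cre, an adeno-associated virus that delivers the Cre recombinase, at 6 weeks of age, and livers were taken 4 weeks later, at 10 weeks. The controls therefore share the virus and the recombinase with the KO mice but not the loxP sites. The promoter that drives Cre is not given in the sources used here, and the RNA is from whole tissue, so cells without the deletion contribute to the KO libraries. LKB1 is a protein kinase that activates AMPK and related kinases, and the series title names metabolic reprogramming of the liver as its subject.

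Lysine is broken down in mitochondria, mainly of the liver. Aass joins lysine to alpha-ketoglutarate and splits the product into glutamate and a semialdehyde, Aldh7a1 oxidises that semialdehyde, and after further steps Gcdh turns glutaryl-CoA into crotonyl-CoA. Proline is oxidised by Prodh, and hydroxyproline, which comes largely from collagen, by Prodh2. Aldh4a1 then oxidises the products of both, which gives glutamate in the case of proline. In the opposite direction Aldh18a1 makes pyrroline carboxylate from glutamate and Pycr1 reduces it to proline.

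The upstream sequences of Aass, the only one of the 8 genes that passed the test, and of Gcdh, a later enzyme of the same pathway that did not pass, are shown side by side because they differ in the motifs found. Each holds the 250 bases before the RefSeq start of the gene on GRCm38.p6, on the minus strand, at chr6:23132987-23133236 for Aass and chr8:84893922-84894171 for Gcdh. Capitals mark matches to 4 motifs searched on both strands: TGACGTCA (the full cAMP response element), TGACG (the core of that element, contained in it), TGATGNAA (a composite element of ATF4 and C/EBP) and TTGCNNAA (a C/EBP element).
Aass: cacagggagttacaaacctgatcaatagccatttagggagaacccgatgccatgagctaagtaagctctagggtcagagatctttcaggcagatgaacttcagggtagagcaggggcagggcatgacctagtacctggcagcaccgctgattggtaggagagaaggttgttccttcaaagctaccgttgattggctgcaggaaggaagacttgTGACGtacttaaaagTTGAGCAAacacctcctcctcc
Gcdh: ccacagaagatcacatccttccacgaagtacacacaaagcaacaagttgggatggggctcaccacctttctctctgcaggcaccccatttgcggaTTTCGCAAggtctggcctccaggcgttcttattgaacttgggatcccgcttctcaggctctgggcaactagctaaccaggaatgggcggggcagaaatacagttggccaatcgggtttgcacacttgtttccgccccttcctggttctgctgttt
The Aass window held TGACG beginning 37 bases before the start and TTGAGCAA, a match to the C/EBP letters on the other strand, beginning 22 bases before it. The Gcdh window held TTTCGCAA beginning 155 bases before the start. Among 32817 windows of 250 bases in the RefSeq table, 17.7% held TGACG, 9.57% the C/EBP letters, 3.45% TGATGNAA and 1.55% TGACGTCA. Windows were found for 7 of the 8 genes. Prodh2 had a C/EBP match (TTCAGCAA) 244 bases before its start, Pycr1 had TGATGCAA 103 bases and TTGCAAAA 219 bases before its start, and the windows of Prodh, Aldh4a1 and Aldh18a1 held none of the 4 motifs. The Aass and Gcdh windows differed in TGACG alone, as both held a C/EBP match. The pair was picked for a difference in motifs, so this difference carries no weight as a result. These matches describe letters only and are not evidence of binding, and their relation to the changes in level was not tested.

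The library totals ran from 47659122 to 56147667 counts. Stk11, the targeted gene, was measured at 22.1, 14.4 and 11.4 CPM (counts relative to library size after TMM scaling) in KO 1 to 3 and at 66.1, 64.2 and 69.7 CPM in WT 1 to 3. Replicate 1 of each group had 42472 (KO) and 29243 (WT) counts of Xist and at most 6 counts of 4 Y-linked genes, whereas the other 4 libraries had at least 6146 Y-linked counts and at most 16 of Xist. Results are therefore also given for these 4 Y-linked libraries (KO 2 and 3 against WT 2 and 3) and for the Xist pair (KO 1 against WT 1), where a single library per group leaves no error. The summed level of 5 hepatocyte markers (the listed symbol Tf was not matched) ran from 18431 to 66812 CPM in KO. In WT it ran from 83445 to 118541 CPM. Alb made up most of this sum, at 10394.5 to 50549.7 CPM in KO and 57064.1 to 95625.6 CPM in WT. Of the 5 markers, 4 were lower in every KO library than in every WT library. The sum of 6 sinusoidal endothelial markers ran from 75.7 to 122 CPM in KO and from 155 to 209 CPM in WT. Of these markers, 5 of 6 were lower in every KO library. Such separation downward was found for 15.5% of all genes tested. In both lists 0 markers passed the edgeR test over 6 libraries (adjusted p under 0.05). The sums of the Kupffer cell, stellate cell and bile duct lists (6 markers each) overlapped between the groups, and none of the markers was at 0 in all libraries. All 6 stellate markers had a log2 fold change below 0 (median -0.90), and 0 passed over 6 libraries. In edgeR on the Y-linked libraries, 4 of 5 hepatocyte, 5 of 6 endothelial, 4 of 6 stellate, 2 of 6 Kupffer and 1 of 6 bile duct markers passed as lower. There 1 Kupffer marker passed as higher. Of all genes tested there, 16.1% passed as lower and 17.2% as higher. The part of these differences in the results below was not tested, and in bulk tissue fewer cells of a type and less RNA per cell cannot be told apart.

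Of the 8 genes, 1 rose and 0 fell in KO by the quasi-likelihood test of edgeR, with an adjusted p-value of 0.05 as the threshold. The same call was made for 3.37% of all genes tested, 2.15% as higher and 1.22% as lower. In 4 of the 8 genes (Aass, Aldh7a1, Aldh4a1 and Aldh18a1) every KO library lay above every WT library, and in 0 genes below. Such separation upward was found for 16.9% of all genes tested and downward for 15.5%. The median log2 fold change of the 8 genes was 0.51, beside 0.01 over all genes tested. Before adjustment, 2 of the 8 genes (Aass and Aldh4a1) and 26.3% of all genes tested had a p-value under 0.05. These counts describe 8 genes chosen by pathway with earlier results of these data known, and they give no test of the group.

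**Figure D1:**
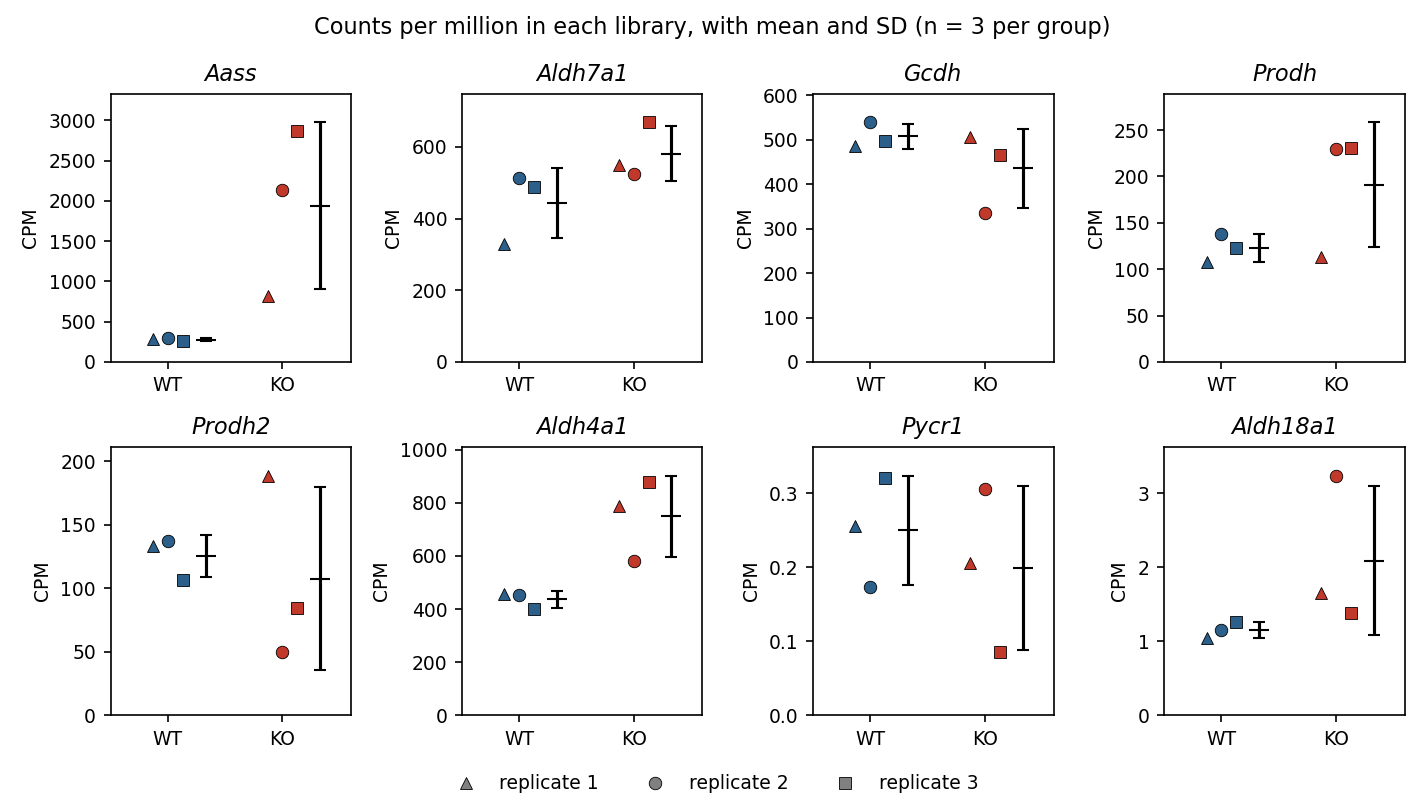
Level of each of the 8 genes in CPM (vertical axes, each from 0) in the 3 WT and 3 KO libraries, with the mean and SD of each group beside the points and the replicate number given by the marker. Aass lay between 818 and 2867 CPM in KO and between 255 and 299 CPM in WT, whereas the KO points of Prodh2 lay on both sides of the WT points.

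Aass (ENSMUSG00000029695.13, GRCm38 chromosome 6, 23072173 to 23132986, minus strand, protein-coding) encodes the enzyme that commits lysine to breakdown. Its level was 818, 2132 and 2867 CPM in KO 1 to 3 and 280, 299 and 255 CPM in WT 1 to 3. Every KO library was above every WT library, the WT libraries were close together, and KO 1 was well below the other KO libraries. The means were 1939 ± 1038 CPM in KO and 278 ± 22.4 CPM in WT (SD, n = 3 each). Aass thus rose by 2.80 ± 0.455 on the log2 scale (SE), or 6.98-fold, passing the edgeR test at an adjusted p of 0.0322, and it ranked 172 of 14539 genes by size of rise.

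The rise of Aass was present in both subsets at different sizes. It was 3.17 ± 0.255 (log2, SE) in the 4 Y-linked libraries, where the edgeR adjusted p was 0.00121, and the log2 ratio was 1.55 in the Xist pair. The difference between the subsets, tested as an interaction of group with Xist state in edgeR, was -1.63 on the log2 scale (unadjusted p = 0.0075, adjusted p = 0.111). All error in this interaction comes from the Y-linked libraries, since the Xist state has 1 library per group. The call over 6 libraries was lost when KO 2, KO 3, WT 1, WT 2 or WT 3 was left out, with edgeR adjusted p-values of 0.0897, 0.121, 0.083, 0.169 and 0.167 and log2 fold changes from 2.41 to 2.85. Without KO 1 it passed, at a log2 fold change of 3.16, in a fit that called 4473 of 14833 genes tested. The targeted gene Stk11 passed over 6 libraries (log2 fold change -2.06 ± 0.247, SE, edgeR adjusted p = 0.0167). Its call was also lost without KO 2, KO 3, WT 2 or WT 3, with edgeR adjusted p-values from 0.0607 to 0.104. Without WT 1 the call of Stk11 was kept (edgeR adjusted p = 0.0333).

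Aldh7a1 (ENSMUSG00000053644.13, GRCm38 chromosome 18, 56509687 to 56572951, minus strand, protein-coding), which acts on the product of Aass, did not pass the test. Its level was 550, 526 and 669 CPM in KO 1 to 3 and 330, 513 and 487 CPM in WT 1 to 3. All KO libraries were above all WT libraries, but the lowest KO value was close to the highest WT value. The log2 fold change of 0.39 ± 0.225 (SE) had an edgeR adjusted p of 0.311, and the log2 ratio was 0.74 in the Xist pair and 0.25 in the Y-linked libraries. Its exons share 300 bases with Phax on the opposite strand, and since the use of strand in counting is not given, reads there cannot be assigned. Phax was at 14.1 to 18.2 CPM.

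Gcdh (ENSMUSG00000003809.14, GRCm38 chromosome 8, 84886393 to 84893921, minus strand, protein-coding) did not pass the test. Its level was 506, 336 and 465 CPM in KO 1 to 3 and 487, 540 and 498 CPM in WT 1 to 3. KO 1 lay within the WT range and KO 2 was lowest of all 6. The log2 fold change was -0.22 ± 0.201 (SE, edgeR adjusted p = 0.516). Its log2 ratio was 0.06 in the Xist pair and -0.39 in the Y-linked libraries.

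The balance of the lysine enzymes within a library is given by ratios of their levels. The ratio of Aass to Gcdh, each in CPM per kb of merged exons, was 1.17, 4.58 and 4.45 in KO 1 to 3 and 0.415, 0.400 and 0.369 in WT 1 to 3. That of Aass to Aldh7a1 was 2.02, 5.50 and 5.82 in KO and 1.15, 0.792 and 0.709 in WT. In each ratio every KO library was above every WT library, with KO 1 nearest to WT.

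**Figure D2:**
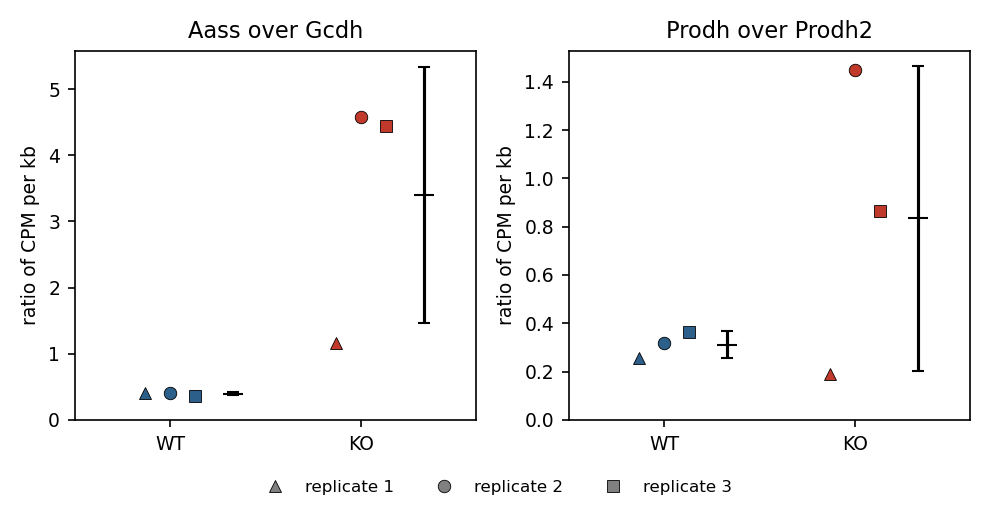
Ratio of length-scaled levels (CPM per kb of merged exons) of Aass to Gcdh on the left and of Prodh to Prodh2 on the right, in each library with the group mean and SD (n = 3). The Aass to Gcdh ratio lay between 1.17 and 4.58 in KO and below 0.42 in WT, and the Prodh to Prodh2 ratio of KO 1 lay below the WT libraries while those of KO 2 and 3 lay above.

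Prodh (ENSMUSG00000003526.12, GRCm38 chromosome 16, 18060357 to 18090203, minus strand, protein-coding), proline dehydrogenase, was measured at 113, 229 and 231 CPM in KO 1 to 3 and at 108, 138 and 123 CPM in WT 1 to 3. KO 2 and KO 3 were above all WT libraries and KO 1 was within the WT range. Over 6 libraries the log2 fold change was 0.64 ± 0.287 (SE) and did not pass the test (edgeR adjusted p = 0.212). In the 4 Y-linked libraries Prodh was higher in KO by 0.81 ± 0.133 (log2, SE; edgeR adjusted p = 0.00908), and in the Xist pair the log2 ratio was 0.08. The interaction was -0.74 (log2, unadjusted p = 0.0183, edgeR adjusted p = 0.162). Aass and Prodh were the 2 of the 8 genes that passed in the Y-linked libraries, a rule by which 33.3% of all genes tested there passed.

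Prodh2 (ENSMUSG00000036892.12, GRCm38 chromosome 7, 30493622 to 30513402, plus strand, protein-coding), hydroxyproline dehydrogenase, went the other way in the same libraries. Its level was 189, 49.9 and 84.2 CPM in KO 1 to 3 and 133, 137 and 107 CPM in WT 1 to 3. KO 1 was the highest of the 6 libraries and KO 2 and KO 3 were the lowest, so the KO values lay on both sides of WT. The log2 fold change over 6 libraries was -0.22 ± 0.449 (SE, edgeR adjusted p = 0.782), and it was 0.13 when KO 2 was left out. It was -0.87 ± 0.272 in the Y-linked libraries (edgeR adjusted p = 0.0587), whereas the log2 ratio in the Xist pair was 0.50. The interaction was 1.36 on the log2 scale (unadjusted p = 0.0298, edgeR adjusted p = 0.195). Left out of the fit, KO 1 moved the value to -0.91 with an edgeR adjusted p-value of 0.0384. That fit called 4473 of 14833 genes tested.

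Opposite signs in the subsets were seen for 2 of the 8 genes, Gcdh and Prodh2, and for 37.1% of all genes tested. None of the 8 genes had an interaction with an adjusted p-value under 0.05 in edgeR, while 3 (Aass, Prodh and Prodh2) had an unadjusted p-value under 0.05. These 2 rules were met by 2.9% and 20.9% of all genes tested. The ratio of Prodh to Prodh2 in CPM per kb was 0.190, 1.45 and 0.864 in KO 1 to 3 and 0.255, 0.318 and 0.363 in WT 1 to 3, so that KO 1 was below every WT library and KO 2 and KO 3 above.

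Aldh4a1 (ENSMUSG00000028737.15, GRCm38 chromosome 4, 139622866 to 139649690, plus strand, protein-coding) serves both proline and hydroxyproline breakdown. Its level was 789, 580 and 879.8 CPM in KO 1 to 3 and 457, 453 and 401 CPM in WT 1 to 3. Every KO library was above every WT library. The means were 749.7 ± 154 and 437 ± 31.3 CPM (SD, n = 3 each), a log2 fold change of 0.78 ± 0.207 (SE) that missed the threshold (edgeR unadjusted p = 0.00728, adjusted p = 0.0801). Its size was alike in the subsets, at 0.77 in the Y-linked libraries and a log2 ratio of 0.79 in the Xist pair. Aldh4a1 passed in DESeq2 (adjusted p = 0.00352) and in edgeR without KO 1 (adjusted p = 0.0417). These 2 fits called many genes, 2290 of 14491 and 4473 of 14833 tested. Of its exon bases, 1595 are shared with the gene model Gm21969 on the same strand, which had at most 21 counts in a library.

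**Figure D3:**
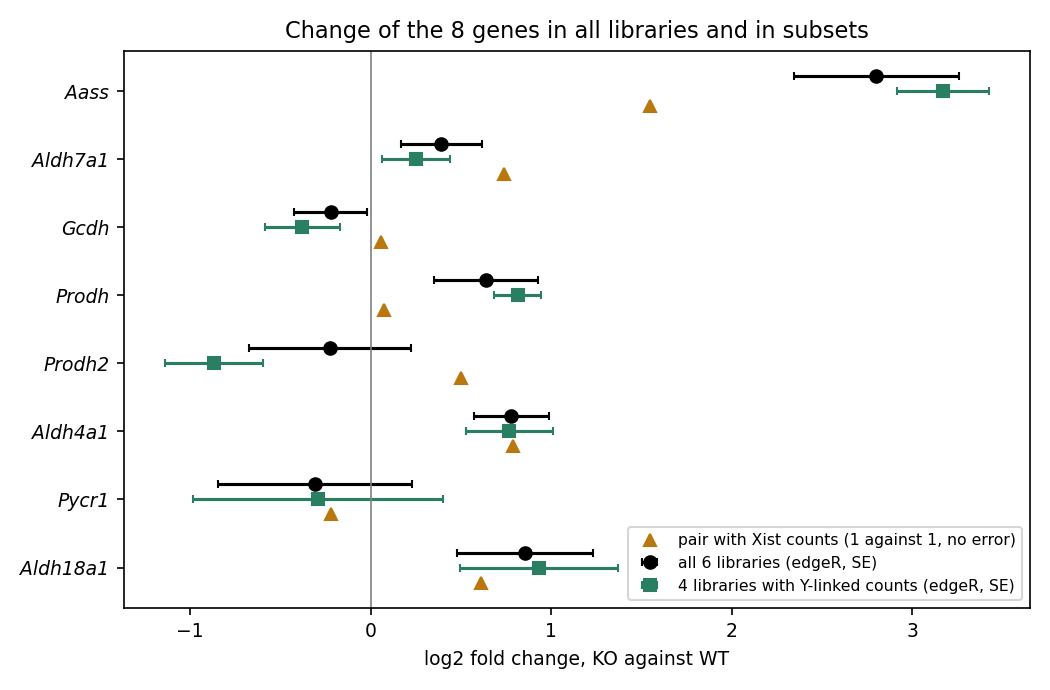
Log2 fold change of each gene, KO against WT (horizontal axis, 0 marked by a line), over all 6 libraries (circles) and the 4 Y-linked libraries (squares), with SE from edgeR, and the log2 ratio of the Xist pair (triangles, no error). Aldh4a1 lies between 0.77 and 0.79 in all 3, whereas Aass runs from 1.55 to 3.17 and Prodh2 from -0.87 to 0.50.

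Aldh18a1 and Pycr1, the 2 synthesis enzymes among the 8 genes, had few counts. Aldh18a1 (ENSMUSG00000025007.13, GRCm38 chromosome 19, 40550257 to 40588463, minus strand, protein-coding) had 96, 180 and 65 counts in KO 1 to 3 and 53, 60 and 59 in WT 1 to 3, or 1.65, 3.24 and 1.38 CPM against 1.04, 1.16 and 1.26 CPM. The KO libraries were above the WT libraries, KO 2 by far the most. The log2 fold change of 0.86 ± 0.376 (SE) did not pass the test (edgeR adjusted p = 0.204). Without KO 2 it was 0.40.

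Pycr1 (ENSMUSG00000025140.15, GRCm38 chromosome 11, 120635712 to 120643769, minus strand, protein-coding) had 12, 17 and 4 counts in KO 1 to 3 and 13, 9 and 15 in WT 1 to 3. The groups overlapped, and the lowest value, in KO 3, was near the floor of 3 counts. Its log2 fold change was -0.31 ± 0.539 (SE, edgeR adjusted p = 0.746) and became 0.036 without KO 3, so that no difference was detectable at this depth. Its relative Pycrl (also named Pycr3), which catalyses the same kind of step, was at 20.5 ± 3.19 CPM in KO and 16.3 ± 1.23 CPM in WT (SD, n = 3 each) and did not pass (edgeR adjusted p = 0.2). Every KO value of Pycrl was above every WT value, a separation found for 16.9% of all genes tested. Per kb of merged exons its level was 12.1 CPM in WT and 15.3 CPM in KO, beside 15.7 and 24.5 CPM for Prodh.

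Scaled by length, each of the 6 breakdown enzymes was far above Aldh18a1 and Pycr1 in every library. In WT the order of levels was Gcdh (185 ± 10.1 CPM per kb), Aldh4a1 (89.1 ± 6.37), Aldh7a1 (85.6 ± 19.1), Aass (72.8 ± 5.86), Prodh2 (51.1 ± 6.76), Prodh (15.7 ± 1.95), Aldh18a1 (0.284 ± 0.0266) and Pycr1 (0.0636 ± 0.0187; SD, n = 3 each). Aldh7a1 overlapped with its neighbours Aldh4a1 and Aass, and no other pair of neighbours overlapped. In KO, Aass came to the top at 508 ± 272 CPM per kb, followed by Gcdh (158 ± 32.4), Aldh4a1 (153 ± 31.3), Aldh7a1 (112 ± 14.8), Prodh2 (43.8 ± 29.4), Prodh (24.5 ± 8.63), Aldh18a1 (0.513 ± 0.247) and Pycr1 (0.0506 ± 0.0281). In KO, the ranges of Gcdh and Aldh4a1, of Aldh4a1 and Aldh7a1, and of Prodh2 and Prodh overlapped. Merged exon length stands in for the length of the transcripts present, which differs where 1 isoform dominates.

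**Figure D4:**
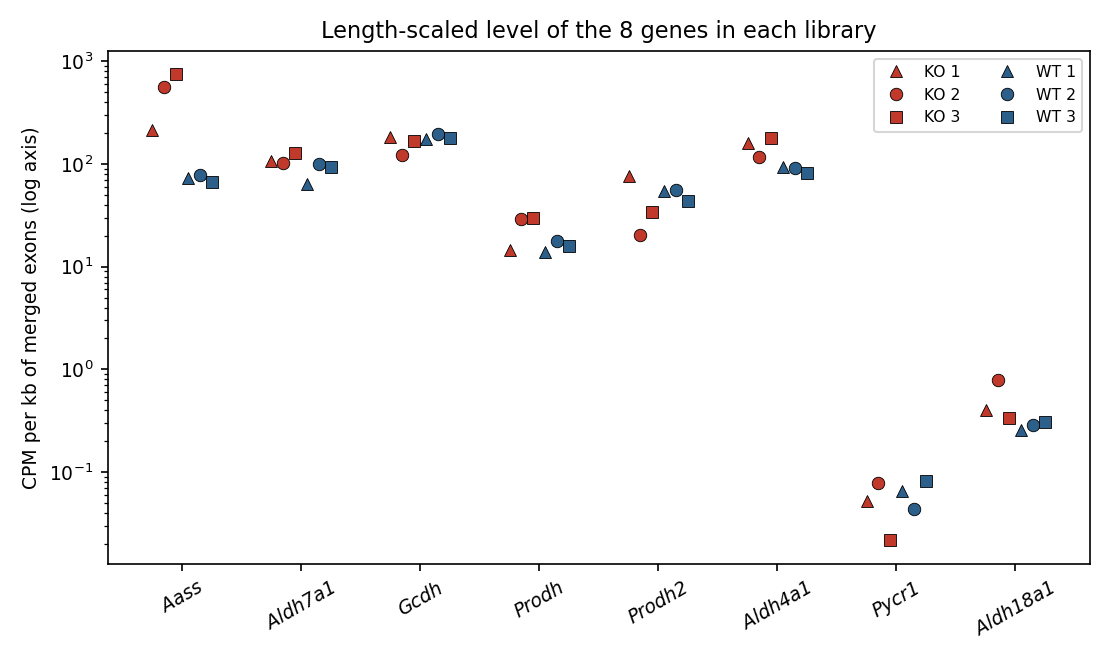
Level of the 8 genes in CPM per kb of merged exons (log axis) in each KO (red) and WT (blue) library. The 6 breakdown enzymes lie between 13.8 and 751 CPM per kb and Aldh18a1 and Pycr1 below 0.8, and Aass is above the other 7 genes in every KO library.

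The other genes of these pathways were read from lists of 45 genes, also chosen with earlier results known, of which 43 were tested. Of the 43, 6 rose and 0 fell at an adjusted p-value under 0.05 in edgeR, calls that 2.15% and 1.22% of all genes tested received, and the median log2 fold change was 0.08, beside 0.01 over all genes. In the 4 Y-linked libraries 16 of 43 were higher and 8 lower, where 17.2% and 16.1% of all genes were. On the lysine side (21 tested, 2 rose) the risers were Slc7a2 and Dhtkd1. Slc7a2, a transporter of lysine and arginine at the cell membrane, was at 1699, 1680 and 2522 CPM in KO 1 to 3 and 489, 454 and 384 CPM in WT 1 to 3, a log2 fold change of 2.15 ± 0.247 (SE, edgeR adjusted p = 0.0147). Dhtkd1, part of the enzyme complex that makes glutaryl-CoA just before Gcdh, was at 77.2, 67.8 and 92.1 CPM in KO and 43.1, 49.1 and 40.3 CPM in WT. Its log2 fold change was 0.84 ± 0.155 (SE, edgeR adjusted p = 0.0431), with 0.84 and 0.83 in the Xist pair and the Y-linked libraries. For both genes every KO library was above every WT library. The call of Dhtkd1 was lost when any library other than KO 1 was left out, and that of Slc7a2 without WT 2 or WT 3.

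Between Aldh7a1 and Dhtkd1 stands Aadat, an aminotransferase, which was at 82.3 ± 5.98 CPM in KO and 119 ± 39.9 CPM in WT (SD, n = 3 each; log2 fold change -0.54, edgeR adjusted p = 0.236). In the Y-linked libraries its log2 fold change was -0.73 (edgeR adjusted p = 0.0131), whereas KO 1 and WT 1 were both at 75.6 CPM. Crym, which reduces cyclic imines of the alternative pipecolate route, was low, at 1.48 ± 0.502 CPM in KO and 0.789 ± 0.751 CPM in WT (edgeR adjusted p = 0.418). Its log2 fold change was 0.91 over 6 libraries, 2.05 without WT 1 and 2.29 in the Y-linked libraries (edgeR adjusted p = 0.00537 in the last), and the log2 ratio in the Xist pair was -0.73.

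On the proline side (22 tested, 4 rose) the risers were Oat, Got1, Gls2 and Agxt. Oat, which links ornithine to pyrroline carboxylate, was at 3832, 3568 and 4983 CPM in KO 1 to 3 and 538, 537 and 482 CPM in WT 1 to 3, with no overlap (log2 fold change 2.99 ± 0.236, SE, edgeR adjusted p = 0.0047). Agxt, which turns the glyoxylate from hydroxyproline into glycine, was at 1219, 1380 and 1905 CPM in KO and 386, 290 and 248 CPM in WT (2.29 ± 0.272, edgeR adjusted p = 0.0161). Got1, a cytosolic aspartate aminotransferase, and Gls2, the liver glutaminase, rose by 3.19 ± 0.431 and 2.12 ± 0.236 on the log2 scale (edgeR adjusted p = 0.0214 and 0.0132). These 4 calls were lost without WT 2 or WT 3, with adjusted p-values from 0.0613 to 0.142, and that of Got1 also without KO 2 or KO 3 and that of Agxt without KO 3.

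Hoga1, the last enzyme specific to hydroxyproline, did not pass the test, at 122 ± 30.3 against 130.3 ± 12.9 CPM (SD, n = 3 each; edgeR adjusted p = 0.803). Glud1, glutamate dehydrogenase, was at 1104 ± 170 CPM in KO and 1425 ± 203 CPM in WT (edgeR adjusted p = 0.318). Every KO value of Glud1 was below every WT value, but KO 3 (1236.7 CPM) was close to WT 3 (1240.3 CPM). Such separation downward was found for 15.5% of all genes tested.

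**Figure D5:**
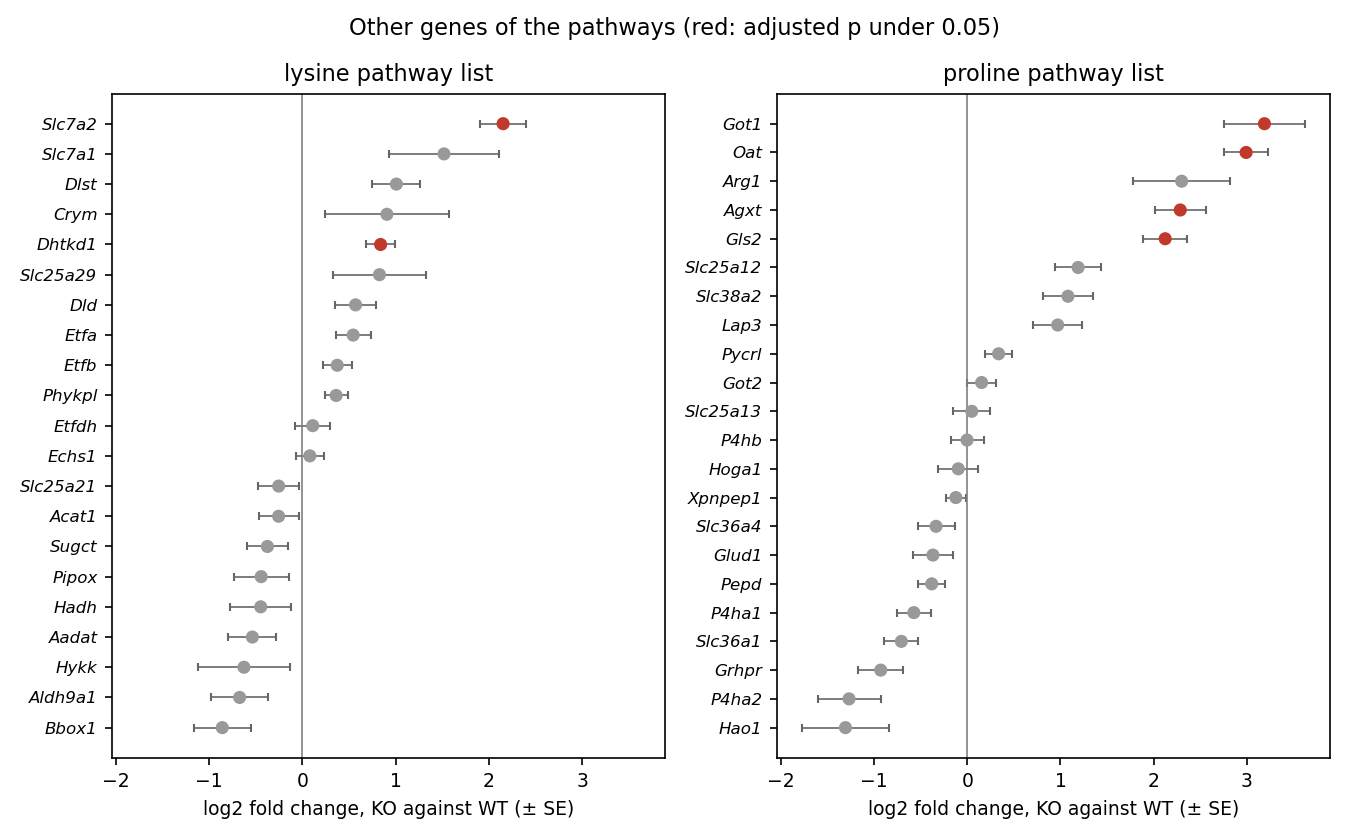
Log2 fold change (KO against WT) ± SE from edgeR over 6 libraries for the 43 tested genes of the lysine list (left) and the proline and hydroxyproline list (right). The 6 genes in red passed an adjusted p-value of 0.05, all of them above 0, from 0.84 for Dhtkd1 to 3.19 for Got1.

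Among 11972 other genes with a mean of at least 1 CPM, those whose log2 CPM followed a member most closely over the 6 libraries were sought as a description. For Aass they were Wdr55 and Asl, both with a Pearson r of 0.999. Asl, a urea cycle enzyme, rose by 2.64 on the log2 scale, and the log2 fold change of Wdr55 was 0.40, so the pattern was shared at a different scale. The closest genes were Chd1 (0.999) and Wbp11 (0.998) for Prodh, Wdfy1 (0.995) and Scd1 (0.989) for Prodh2, Tshz2 (0.992) and Aspdh (0.992) for Aldh4a1, Car5a (0.994) and Ube3b (0.993) for Gcdh, and Oaz2 (0.997) and Cep135 (0.993) for Aldh7a1. For Aldh18a1 they were Gas5 (0.994) and Gtpbp2 (0.991), and for Pycr1, at its few counts, Rnf25 (0.983) and Pacs2 (0.976). These coefficients rest on 6 points in 2 groups and on a search over all those genes, so they describe the libraries and carry no p-value.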

How the data were processed

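The values are RSEM expected counts, deposited by the authors as a single table of 55450 genes in 6 libraries. The submitters' processing notes list bcl2fastq 2.17, cutadapt 1.18, STAR 2.7.0f, RSEM 1.3.1 and the build mm9. All 55450 versioned gene IDs were found in GENCODE M21, which is on GRCm38, so positions and exon lengths come from there. The use of strand is not given in the sources used here. Between 4.93% and 5.47% of values were not whole.

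Groups and replicate numbers come from the titles, and each column was matched by its description. Counts were rounded, filtered with filterByExpr, scaled with TMM (trimmed mean of M-values) and compared with edgeR 4.0.16 (quasi-likelihood test, R 4.3.3), with Benjamini-Hochberg adjustment over 14539 genes and a threshold of 0.05. SE is the log2 fold change over the square root of F. Log2 ratios of the Xist pair, and the signs compared between the subsets, use an offset of 0.1 CPM, and log2 CPM a prior count of 2. A floor of 3 counts is 0.0515 to 0.0641 CPM. Alternatives were DESeq2 1.42.0, limma 3.58.1 (voom), other scalings, no filter, added terms and subsets of libraries, and the tests were tried on simulated data.

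The members and lists were chosen with earlier results of these data known. The text names the 8 genes, Stk11, pathway genes past the threshold, Aadat, Dhtkd1, Crym, Pycr3, Oat, Hoga1 and Glud1 whatever their result, and the 2 genes closest in pattern to each member. Cell type lists held 6 genes each, and 0 columns were left without a sample. A further gene that this rule names is not reported here.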

Additional observations from a re-analysis of the deposited data

Results flagged for a closer look

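Crym, from the lysine list, was the only one of the 8 genes and 43 tested pathway genes with an edgeR adjusted p-value under 0.05 for the interaction of group with Xist state. The interaction was -3.08 on the log2 scale (adjusted p = 0.0452). Its counts were 56, 109 and 72 in KO 1 to 3 and 84, 18 and 17 in WT 1 to 3, where WT 1 was well above WT 2 and WT 3. The Xist state holds 1 library per group, so the error of this test comes from the 4 Y-linked libraries alone, and KO 1 and WT 1 are assumed to vary like them. The same test called 2.9% of all genes.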

How the results depend on the processing

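The count of all genes past the threshold was 490 over 6 libraries, and it was 771 with no filter, 2290 in DESeq2, 1504 with the Xist state as a term, 4847 in the 4 Y-linked libraries and 105 with the replicate block. It ran from 6 to 4473 when 1 library was left out (6 without WT 2, 4473 without KO 1). Scaling by library size alone made 74.4% of the called genes higher in KO, against 63.9%.

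Over all genes tested, 490 of 14539 passed over 6 libraries and 2290 of 14491 in DESeq2. In the Y-linked libraries 4847 of 14546 passed, and without KO 1 4473 of 14833. Of the 8 genes 1 passed over 6 libraries, 2 in DESeq2 (Aass and Aldh4a1), 2 in the Y-linked libraries and 0 with the replicate block. From 0 to 4 of them passed when 1 library was left out (Aass, Prodh, Prodh2 and Aldh4a1 without KO 1). For the interaction, 0 passed, against 1 with library size alone, 2 with no filter (Aass and Prodh2) and 1 in DESeq2 (Aass). The share of all genes passing in these interaction refits was not computed, so the member counts cannot be set against it. The causes of the shifts between settings were not tested. With the replicate block Aass kept a log2 fold change of 2.63 (edgeR adjusted p = 0.0771), and Dhtkd1, Slc7a2, Gls2, Got1 and Agxt also missed the threshold. No pairing of the mice by replicate number is stated in the sources used here. The deviations of same-numbered libraries from their group means correlated at 0.178, 0.0443 and 0.0679. KO 1 correlated best with WT 1, whereas KO 2 and KO 3 correlated best with the other's number. KO 1 and WT 1 are also the Xist pair, so a shared Xist state and a pairing cannot be told apart there. With 3 libraries per group these values cannot settle whether the mice were paired.

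The direction of Aass was the same under all 14 alternatives, with a log2 fold change from 2.41 to 3.17. That of Aldh4a1 was too, from 0.65 to 0.94. In both genes every KO library lay above every WT library, so refits of these same libraries could hardly turn the sign. Aass passed the threshold in 8 of the 14 alternatives and Aldh4a1 in 2. With 1 library left out, log2 fold changes ran from -0.91 to 0.13 for Prodh2 (0.13 without KO 2), from -0.73 to 0.036 for Pycr1 (0.036 without KO 3) and from -0.23 to 0.10 for Hoga1 (0.10 without KO 2). These 3 genes turned sign and had not passed the test. Depth limits Pycr1, at 4 to 17 counts per library.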
